A study of Huso dauricus x Acipenser schrenckii with 16 samples.

Results

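The enzymes that write, erase and read methyl marks on DNA and histones were followed in ovary RNA of farmed sturgeon hybrids, whose mothers were Huso dauricus and whose fathers were Acipenser schrenckii. A row of the gene table was taken when the first entry of its protein description named a DNA (cytosine-5)-methyltransferase, a methylcytosine dioxygenase, a lysine-specific demethylase, a histone-lysine N-methyltransferase, a histone-arginine methyltransferase, a polycomb protein or a methyl-CpG-binding protein, and LOC117400200 (ZMYND11) was added by name. This gave 146 of the 41685 rows, under 71 protein names. The set was chosen by measured values: DNMT1 (LOC117966883), KDM2B (LOC117426610) and ZMYND11 had passed the edgeR test between the yield groups. Values of that comparison are therefore descriptions here and carry no test of the set.

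The high-yield group held 8 adult females of a population ranked as giving much caviar, the ripe egg mass, and the low-yield group 8 adult females of another population ranked as giving little. Both groups were of the same cross, kept at one farm under normal breeding conditions. The labels give 1 poly(A)-selected ovary library per female. Each yield group is a separate population, so yield and any other difference between the populations cannot be told apart. In bulk ovary, fewer cells of a type and less RNA per cell cannot be told apart either.

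DNA methyltransferases place methyl groups on cytosine, DNMT1 by copying the pattern of the old strand after replication and DNMT3A and DNMT3B on sites that were bare before, while TET dioxygenases oxidise the mark and methyl-CpG-binding proteins recognise it. Histone lysine methyltransferases and demethylases add and remove methyl groups at named lysines of histones H3 and H4; in general, H3K4 methylation marks active promoters, H3K36 methylation transcribed gene bodies, and H3K9 and H3K27 methylation silent chromatin. Polycomb repressive complex 2 (PRC2) methylates H3K27, and polycomb repressive complex 1 (PRC1), built around a PCGF protein such as BMI1, ubiquitinates histone H2A. Growing oocytes set up their own methylation and store RNA for the embryo, and in mammals DNMT3A methylates the oocyte genome.

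Library totals ran from 37362125 to 60873931 counts. Among high-yield libraries there were 4 near-identical pairs (1 and 5, 2 and 6, 3 and 7, 4 and 8), with Spearman's rho across genes of 0.989 to 0.994 within a pair and at most 0.970 between any other libraries. Counts within these pairs varied 4.33 to 5.77 times as much as Poisson sampling, against at least 20.7 times in every other pairing. Each pair was therefore counted as 1 sample in means and SDs (n = 4), with each low-yield library as 1 (n = 8). The p-values and SEs over 16 libraries treat the members of a pair as independent, so these SEs may be too small. SEs of fold changes below are from that fit unless pair-summed counts are named. Low-yield 2 and 5 stood apart from the rest, with summed levels of fibroblast and matrix markers of 882 and 1725 CPM (counts relative to library size, scaled by the trimmed mean of M-values, TMM), against 75.8 to 208 CPM in the other libraries. Oocyte markers (6 of 8 listed genes found, dazl and figla without a count) summed to between 14920 CPM in low-yield 2 and 74530 CPM in low-yield 5, so the labelled tissue was seen in all libraries. Results that rest on low-yield 2 and 5 are given below with and without them.

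Of the 146 rows, 122 passed the low-count filter, and 24 rows did not. Over all 27653 genes tested with edgeR, 16 (0.0579%) passed an adjusted p of 0.05 between high and low yield, 14 of them (0.0506%) lower and 2 (0.00723%) higher in high yield. Among the 122 tested rows 3 passed, all lower in high yield, and these are the 3 rows that led to the choice of the set; 35 had an unadjusted p under 0.05, against 19.8% of all tested genes. These calls did not hold without single libraries: edgeR called 0 of the rows when any 1 of high-yield 1, 2, 3, 5, 6, 7 and 8 or low-yield 1, 2, 3, 4 and 6 was left out, and 1 to 5 when any other was. With the counts of each high-yield pair summed, edgeR called 0 of 128 rows, 13 having an unadjusted p under 0.05, against 0 of all 30009 genes tested and 8.52% at the unadjusted level. DESeq2 over 16 libraries called 8 of the rows, against 5.87% of all genes. Of these 8, 6 were lower in high yield (both DNMT1 rows, both KDM2B rows, ZMYND11 and SETDB1 LOC117962652), against 3.12% of all genes, and 2 were higher (SMYD1 LOC117403714 and SMYD3), against 2.75%. DESeq2 on pair-summed counts called 4 (both DNMT1 rows, KDM2B LOC117426610 and ZMYND11), all lower, against 0.289% of all genes, 0.205% lower and 0.0841% higher. The rows that chose the set, DNMT1 LOC117966883, KDM2B LOC117426610 and ZMYND11, are among those called by DESeq2 both times. Their calls come from the contrast that chose them, so they are descriptions and no separate test.

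Of the 122 tested rows, 81 (66.4%) had a negative log2 fold change of high over low yield, against 52.7% of all tested genes, and the median was -0.22, against -0.03 over all tested genes. Without low-yield 2 and 5, 71 of 122 were negative, against 13254 of all 27905 genes tested in that fit. The median was then -0.07, against 0.03 over all tested genes.

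DNMT1 had 2 rows, both lower in high-yield ovaries. For LOC117966883 the high-yield libraries ran from 10.5 over a median of 14.98 to 22.8 CPM, and the low-yield libraries from 13.5 over a median of 46.4 to 66.3 CPM. Low-yield 5 was the only low-yield library inside the high-yield range, and low-yield 8 came next at 24.0 CPM. Means were 15.7 ± 3.90 CPM in high yield (SD, n = 4) and 44.4 ± 18.1 CPM in low yield (SD, n = 8). The log2 fold change was -1.50 (SE 0.27) over 16 libraries and -1.48 (SE 0.37) with pair-summed counts. The other row, LOC117402080, was even in high yield, from 10.3 over a median of 11.01 to 12.6 CPM, and uneven in low yield, from 10.7 over a median of 33.0 to 57.4 CPM. Here too low-yield 5 lay inside the high-yield range, and low-yield 8, at 12.7 CPM, lay just above it. Its log2 fold change was -1.49 (SE 0.27), nearly that of the first row. Without low-yield 2 and 5 the values were -1.56 and -1.44, and in that fit the DNMT1 rows were 2 of the 3 genes that edgeR called (0.0108% of all genes tested). LOC117966883 had chosen the set by a comparison of the same groups, so this too is a description.

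KDM2B, a demethylase of H3K36 that binds unmethylated CpG DNA and brings a form of PRC1 to it, also had 2 rows. LOC117426610 ran from 5.47 over a median of 6.80 to 9.24 CPM in high yield, and from 7.99 over a median of 16.5 to 19.2 CPM in low yield. LOC117428465 ran from 3.30 over a median of 5.21 to 6.45 CPM in high yield, and from 5.99 over a median of 10.6 to 13.7 CPM in low yield. In both rows only low-yield 8 fell inside the high-yield range, while low-yield 5, which was low for DNMT1, was among the high libraries. The log2 fold changes were -1.14 (SE 0.19) and -1.04 (SE 0.21), and without low-yield 2 and 5 they were -1.05 and -0.87.

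ZMYND11, a reader of trimethylated H3K36 on the histone variant H3.3, was among the rows that chose the set. Its libraries did not overlap between the groups. By pair means, 0.297% of all tested genes had high yield below every low-yield library, and the share by single libraries is not given here. High-yield libraries ran from 1.495 over a median of 2.13 to 2.99 CPM, and low-yield libraries from 3.07 over a median of 7.59 to 11.4 CPM. Low-yield 7 was the lowest of its group, just above high-yield 4, the highest of the other. Its log2 fold change was -1.84 (SE 0.28); leaving out low-yield 2 and 5 gave -1.59. A second row described as ZMYND11, LOC117394789, which the rule did not take, ran from 1.03 to 3.29 CPM in high yield and from 1.42 to 7.10 CPM in low yield, with a log2 fold change of -0.71 (SE 0.35). Low-yield 1, 2, 5 and 6 lay above every high-yield library, and the other 4 low-yield libraries lay inside the high-yield range.

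**Figure D1:**
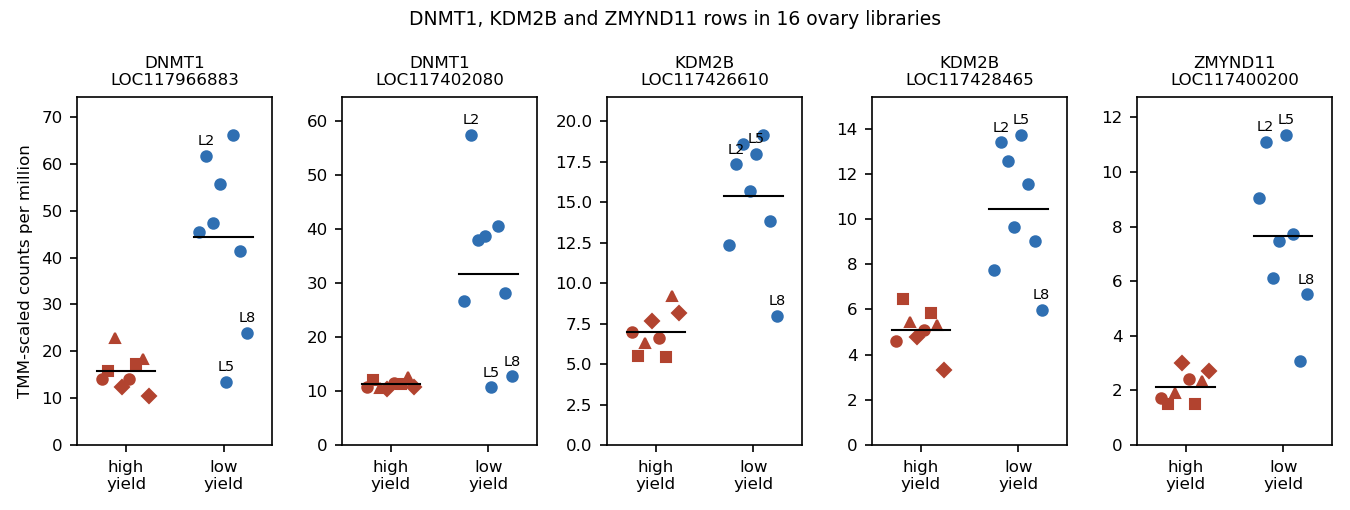
CPM (vertical axes, from 0, one scale per panel) of both DNMT1 rows, both KDM2B rows and ZMYND11 in each library, high yield at left and low yield at right; the 4 marker shapes in high yield are the 4 near-identical pairs, and lines are the means over 4 pair means and over 8 libraries. Low-yield 5 (13.5 and 10.7 CPM) lies among the high-yield libraries for DNMT1 but not for KDM2B or ZMYND11, and low-yield 8 is low in the DNMT1 and KDM2B panels.

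The rows just inside and just outside the threshold were close to each other. Adjusted p by edgeR's quasi-likelihood test was 0.0249 for ZMYND11, 0.0410 for KDM2B LOC117426610 and 0.0435 for DNMT1 LOC117966883, and it was 0.0504 for DNMT1 LOC117402080 and 0.0562 for KDM2B LOC117428465. In 2 of the 122 tested rows, ZMYND11 and KDM2B LOC117426610, each of the 4 high-yield pair means was under the lowest low-yield value, as in 0.297% of all tested genes. Both rows are among those that chose the set by this comparison, so their separation is a description and cannot be weighed against that share.

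The de novo methyltransferases differed from DNMT1 in where their RNA was found. DNMT3A LOC117402280 ran from 2.42 over a median of 3.09 to 4.25 CPM in high yield, and from 0.834 over a median of 3.44 to 121 CPM in low yield. DNMT3A LOC117411349 ran from 1.14 over a median of 2.29 to 3.35 CPM in high yield, and from 1.25 over a median of 2.55 to 53.9 CPM in low yield. In both rows low-yield 5 and low-yield 2 alone were high, at 121 and 35.9 CPM in the first row and at 53.9 and 43.5 CPM in the second, while the other low-yield libraries reached 5.01 and 4.74 CPM. Their log2 fold changes were -2.76 (SE 0.87) and -2.63 (SE 0.78), but 0.23 and -0.09 once these libraries were left out, and neither edgeR nor DESeq2 called either row.

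Another row described as DNMT3A carries the symbol dtnbb and a further description as dystrobrevin beta, a protein of the dystrophin complex at cell membranes, so which gene its reads came from is uncertain. It ran from 0.457 over a median of 10.7 to 39.5 CPM in high yield and from 0.944 over a median of 1.99 to 10.98 CPM in low yield (log2 fold change 1.97, SE 0.78, and 2.999 without low-yield 2 and 5, its highest low-yield libraries). The pair means were 18.3 CPM in high-yield 1 and 5 and 38.8 CPM in 2 and 6, but 0.938 CPM in 3 and 7 and 3.52 CPM in 4 and 8, a pattern the other DNMT3A rows did not have. DNMT3B was scarce: LOC117424752 had a median of 0.287 CPM in high-yield libraries, against 0.122 CPM in low-yield libraries, and LOC131702106 failed the low-count filter.

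TET rows were also sparse. All 6 rows are described as TET3, 1 of them under the symbol tet1, and 2 passed the filter. LOC117415695 ran from 0.634 over a median of 1.304 to 5.304 CPM in high yield and from 0.958 over a median of 2.52 to 3.88 CPM in low yield, and the tet1 row from 0.177 over a median of 0.893 to 1.74 CPM in high yield and from 0 over a median of 0.873 to 3.85 CPM in low yield. Their groups overlapped over most of the range, with log2 fold changes of -0.09 (SE 0.50) and -0.35 (SE 0.74). Once low-yield 2 and 5 were left out these were -0.06 and 0.54. LOC117415695 overlaps a mitochondrial carrier gene on the other strand, and whether strand was used in counting is not given in the sources used here.

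Methyl-CpG-binding proteins were above 0 in 8 of 12 tested rows, with a median of 0.18 on the log2 scale, or 0.13 once low-yield 2 and 5 were left out. MBD3, a subunit of the NuRD deacetylase complex, ran in LOC117401253 from 29.6 over a median of 60.5 to 83.8 CPM in high yield and from 14.8 over a median of 52.8 to 58.8 CPM in low yield. High-yield 3, 4, 7 and 8 lay above every low-yield library and high-yield 1 and 5 below all but low-yield 5, so that the high-yield pairs spread more widely than the groups differed (log2 fold change 0.32, SE 0.28). MBD2, which is found in another form of the NuRD complex, had a different order of pairs in LOC117409083, with pair means of 49.3 CPM in high-yield 1 and 5 and 56.6 CPM in 2 and 6, but 23.3 CPM in 3 and 7 and 33.8 CPM in 4 and 8, and with low-yield libraries between 21.5 and 48.5 CPM.

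**Figure D2:**
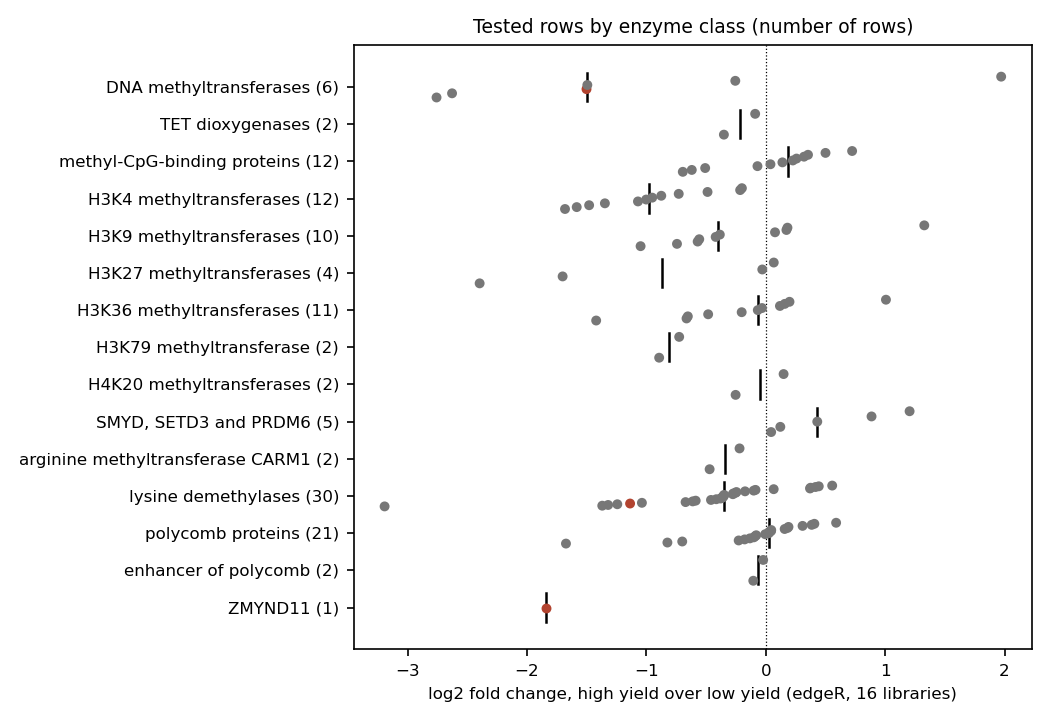
Log2 fold change of high over low yield (horizontal axis, edgeR over 16 libraries) for the 122 tested rows by class, with the number of rows in brackets; points are rows, red points the 3 with an adjusted p under 0.05, and short vertical lines class medians. The 12 H3K4 methyltransferase rows all lie below 0, and the polycomb and methyl-CpG-binding rows lie on both sides of 0.

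Histone lysine methyltransferases made up 58 rows, of which 46 were tested, 31 with a negative value and a median of -0.40, or -0.06 without low-yield 2 and 5. Proteins grouped by name as H3K4 methyltransferases, those of the KMT2 and SETD1 families, were negative in all 12 tested rows, with a median of -0.98. These rows include both of KMT2E (-0.95 and -1.68), placed here by name and not by known activity. All 12 had their highest level in low-yield 2, as did 12.7% of all tested genes. KMT2B LOC117971978, for example, ran from 1.21 over a median of 2.85 to 4.72 CPM in high yield and from 1.92 over a median of 2.81 to 19.5 CPM in low yield, so that the group medians nearly met. Low-yield 2 (19.5 CPM) and low-yield 5 (10.5 CPM) were high and low-yield 6 followed at 6.22 CPM (log2 fold change -1.07, SE 0.51, and -0.07 without low-yield 2 and 5). KMT2C LOC117394699 showed the same libraries on top, from 0.408 over a median of 0.606 to 1.26 CPM in high yield and from 0.449 over a median of 1.121 to 7.91 CPM in low yield (-1.58, SE 0.57, and -0.41 without them). Without low-yield 2 and 5 the median of the 12 rows was -0.19, with 9 rows negative. Both KMT2B rows overlap another gene on the other strand.

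The H3K27 methyltransferases EZH2, the PRC2 enzyme of dividing and embryonic cells, and EZH1, that of resting cells, differed in how evenly they were spread over libraries. EZH2 LOC117400656 ran from 110 over a median of 114 to 116 CPM in high yield and from 69.4 over a median of 106 to 215 CPM in low yield. The high-yield libraries were nearly equal, and the low-yield extremes were low-yield 2 at the bottom and low-yield 5 at the top (log2 fold change -0.03, SE 0.18, and 0.10 without them). EZH1 was highest in the libraries in which DNMT3A was highest. EZH1 LOC117434945 ran from 0.652 over a median of 1.46 to 2.20 CPM in high yield and from 1.05 over a median of 2.47 to 36.5 CPM in low yield, where low-yield 5 (36.5 CPM) and 2 (11.1 CPM) stood above all others (-2.40, SE 0.67, and -0.58 without them). The second EZH1 row, ezh1, was likewise highest in low-yield 2 (10.2 CPM) and 5 (6.52 CPM), against at most 1.298 CPM elsewhere (-1.70, SE 0.72, and 0.29 without them).

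Among the H3K9 methyltransferases, both SETDB1 rows had negative values. SETDB1 silences repeats and is brought to them by KRAB zinc finger proteins in mammals. LOC117962652 ran from 2.56 over a median of 7.64 to 9.41 CPM in high yield and from 6.59 over a median of 14.3 to 25.1 CPM in low yield (-1.05, SE 0.31, and -1.01 without low-yield 2 and 5). Low-yield 8 and 1 lay inside the high-yield range, and high-yield 1 and 5 were the lowest of all. LOC117395637 ran from 11.1 over a median of 12.9 to 24.5 CPM in high yield and from 9.41 over a median of 23.0 to 42.8 CPM in low yield (-0.74, SE 0.27). DESeq2 called LOC117962652 over 16 libraries and edgeR did not. The EHMT1 rows were -0.56 (SE 0.29) and -0.42 (SE 0.28), and the EHMT2 rows 0.18 (SE 0.26) and 0.17 (SE 0.26). EHMT1 and EHMT2 are partners in one enzyme complex for H3K9 dimethylation.

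SUV39H1 trimethylates H3K9 in heterochromatin. LOC117404230 ran from 3.30 over a median of 14.9 to 30.9 CPM in high yield and from 3.70 over a median of 5.30 to 11.6 CPM in low yield (1.33, SE 0.49). The pair means were 30.4 CPM in high-yield 1 and 5 and 25.0 CPM in 2 and 6, above every low-yield library, but 3.75 CPM in 3 and 7 and 5.18 CPM in 4 and 8, within the low-yield range. The second row, LOC117401622, did not separate the high-yield pairs in this way, and ran from 2.67 to 3.87 CPM in high yield and from 1.297 to 4.52 CPM in low yield (0.08, SE 0.26).

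H3K36 methyltransferases, which write the marks that KDM2B removes and ZMYND11 reads, had 7 of 11 tested rows below 0 and a median of -0.07. The extremes were NSD1 LOC117431641 at -1.42 (SE 0.66), highest in low-yield 2, and SETMAR LOC117412151 at 1.01 (SE 0.40). SETD2, which trimethylates H3K36, was -0.48 (SE 0.23) in LOC117394754 and -0.20 (SE 0.41) in LOC117400236, where leaving out low-yield 2 and 5 gave 0.17. NSD2, a dimethyltransferase of the same lysine, had the highest mean FPKM (fragments per transcript length and library size) among histone methyltransferase rows, 99.3 FPKM over 16 libraries in LOC117408614, at an implied length of 658 bases. This row ran from 53.6 over a median of 63.8 to 68.2 CPM in high yield and from 52.7 over a median of 59.0 to 98.9 CPM in low yield (-0.07, SE 0.13). Its second row, LOC117420860, ran from 34.1 over a median of 43.7 to 70.8 CPM in high yield and from 35.9 over a median of 74.7 to 137 CPM in low yield (-0.66, SE 0.23). Low-yield 5 was again the lowest of its group there, and low-yield 6 the highest. DOT1L, the H3K79 methyltransferase, was -0.72 (SE 0.32) and -0.89 (SE 0.34) in its rows, and SUV420H1, which methylates H4K20, was 0.15 (SE 0.15) and -0.25 (SE 0.13).

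The SMYD proteins and SETD3, which also methylate proteins other than histones, were above 0 in all 5 tested rows, and in 4 of 5 without low-yield 2 and 5. SMYD1, a methyltransferase of heart and skeletal muscle, was scarce. Its row LOC117403714 ran from 1.15 over a median of 1.54 to 3.28 CPM in high yield and from 0.349 over a median of 0.909 to 1.11 CPM in low yield (1.21, SE 0.38), and it was the only one of the 122 rows with all 4 high-yield pair means above every low-yield library, as in 0.362% of all tested genes. SMYD3 ran from 5.05 over a median of 7.58 to 11.8 CPM in high yield and from 1.55 over a median of 4.12 to 7.82 CPM in low yield (0.89, SE 0.29), with low-yield 5 the highest of its group. SMYD3 overlaps the mitochondrial transcription factor gene tfb2m on the other strand. DESeq2 called both of these rows over 16 libraries, and none of the other rows above 0.

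CARM1, the arginine methyltransferase that acts as a coactivator of nuclear receptors, was negative in both rows (-0.47, SE 0.21, and -0.22, SE 0.16). LOC117402070 ran from 26.95 over a median of 33.9 to 39.4 CPM in high yield and from 18.9 over a median of 47.8 to 68.5 CPM in low yield. The low-yield libraries bracketed the high-yield ones, with low-yield 5 the lowest and low-yield 6 the highest of the 16.

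**Figure D3:**
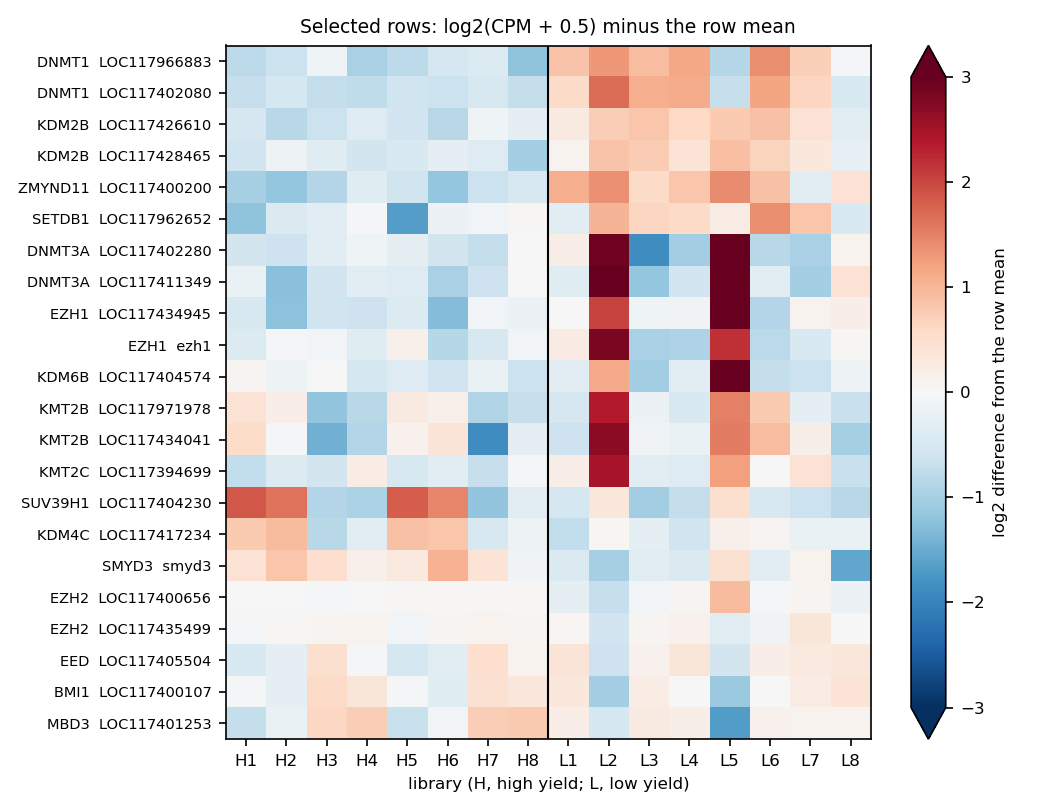
Log2(CPM + 0.5) of 22 rows minus the mean of the row (colour, limited to 3 either way), by library, high yield at left of the black line. The DNMT1, KDM2B and ZMYND11 rows are below their mean in every high-yield library and above it in most low-yield libraries; the exceptions are low-yield 5 and 8 for DNMT1, low-yield 8 for KDM2B and low-yield 7 for ZMYND11. The DNMT3A and EZH1 rows are highest in low-yield 2 and 5, and the KDM6B row in low-yield 5 alone. The SUV39H1 and KDM4C rows are highest in high-yield 1, 2, 5 and 6, and the EZH2 rows are nearly even in high yield.

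Lysine demethylases held 37 rows, of which 30 were tested, 24 with a negative value and a median of -0.35, or -0.12 without low-yield 2 and 5. KDM2A, the relative of KDM2B, was scarce, with a median of 0.802 CPM in high-yield libraries, against 1.42 CPM in low-yield libraries, in LOC117966738 (-1.32, SE 0.80). KDM5 enzymes, which remove H3K4 methylation, were negative in all 5 tested rows, between -0.59 and -0.25, and in 3 of 5 without low-yield 2 and 5. KDM5B LOC131702019 ran from 60.6 over a median of 74.9 to 86.6 CPM in high yield and from 62.3 over a median of 96.4 to 140 CPM in low yield (-0.38, SE 0.15), with the groups overlapping over the lower part of the low-yield range.

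Of the enzymes that remove H3K27 methylation, KDM6B was highest in the libraries in which EZH1 was highest. KDM6B LOC117404574 ran from 0.157 over a median of 0.343 to 0.586 CPM in high yield and from 0 over a median of 0.307 to 22.6 CPM in low yield, with low-yield 5 alone at the top (-3.19, SE 1.14, and 0.67 without low-yield 2 and 5). The other KDM6B rows tested, LOC117404581 and kdm6ba, were highest in low-yield 2, at 8.82 and 6.72 CPM, followed by low-yield 5, at 6.54 and 5.55 CPM, with values of -1.37 (SE 0.67) and -1.24 (SE 0.75), and 0.34 and 1.04 without them. KDM6A, the X-linked relative of KDM6B in mammals, was -0.25 (SE 0.22) in kdm6a and -0.36 (SE 0.22) in LOC117405424.

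Among H3K9 demethylases, KDM3A and KDM3B were negative in all 3 rows, between -0.46 and -0.10, and KDM4B was negative in its 3 tested rows, at -0.67 (SE 0.33), -0.35 (SE 0.28) and -0.35 (SE 0.25). KDM4C, which like KDM4B acts on trimethylated H3K9 and H3K36, was 0.37 (SE 0.20) and 0.56 (SE 0.27) in its rows. KDM4C LOC117417234 ran from 9.90 over a median of 23.7 to 34.8 CPM in high yield and from 10.5 over a median of 15.5 to 19.9 CPM in low yield. As in SUV39H1, high-yield 1, 2, 5 and 6 lay above every low-yield library, while the other high-yield libraries ran from 9.90 to 16.1 CPM. The oxygenases NO66 and MINA, which hydroxylate ribosomal proteins, were 0.07 (SE 0.26) in the NO66 row riox1 (-0.16 without low-yield 2 and 5), and 0.38 (SE 0.18) and 0.44 (SE 0.37) in the MINA rows.

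Polycomb proteins had a median near 0, with rows from -1.67 to 0.59. Of 21 rows, all tested, 10 were negative, with a median of 0.03, and -0.08 without low-yield 2 and 5. The 4 rows of ASXL proteins in this class had a median of -0.53, and -0.46 without low-yield 2 and 5, with 3 negative both times. EED and SUZ12, the partners of EZH2 in PRC2, had values of -0.13 (SE 0.20) and 0.03 (SE 0.16) in the EED rows and of 0.41 (SE 0.23) and -0.08 (SE 0.19) in the SUZ12 rows. EED LOC117405504 ran from 75.1 over a median of 97.4 to 152 CPM in high yield and from 70.1 over a median of 127 to 141 CPM in low yield. BMI1, at 134.8 FPKM over 16 libraries in LOC117400107, ran from 92.4 over a median of 134 to 178 CPM in high yield and from 55.2 over a median of 131 to 160 CPM in low yield (0.18, SE 0.23), with low-yield 5 and 2 the lowest (-0.03 without them). The 11 rows of PCGF proteins and BMI1 had a median of 0.04, and -0.03 without low-yield 2 and 5. The rule also took EPC1, enhancer of polycomb, which belongs to an acetyltransferase complex and not to PRC1 or PRC2; its rows were -0.02 (SE 0.14) and -0.10 (SE 0.14).

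Low-yield 2 held the highest level of 36 of the 122 tested rows (29.5%, against 12.7% of all tested genes), low-yield 6 of 24 (19.7%, against 9.34%) and low-yield 5 of 10 (8.20%, against 15.3%). Rows below a log2 fold change of -1 numbered 22 over 16 libraries, and 6 of these were below -1 without low-yield 2 and 5 as well. Summed marker lists of other cell types were highest in low-yield 5 or 2, and not in low-yield 6. Low-yield 6 had 149.8 CPM of fibroblast and matrix, 8.04 CPM of endothelial and 8.33 CPM of leukocyte markers. It had 47.1 CPM of granulosa and 249 CPM of smooth muscle markers. Fibroblast and matrix markers (9 of 10 listed genes found) summed to between 75.8 and 196 CPM in high yield and between 95.4 and 1725 CPM in low yield. Endothelial markers (7 of 7) summed to 13.5 to 21.6 CPM in high-yield libraries, against 8.04 to 163 CPM in low-yield libraries, with low-yield 5 and 2 on top. Leukocyte markers (6 of 7) summed to 11.2 to 21.7 CPM in high-yield libraries, against 7.59 to 109 CPM in low-yield libraries, again with low-yield 5 and 2 on top. Granulosa cell markers (7 of 7) summed to 32.7 to 43.7 CPM in high-yield libraries, against 40.4 to 107 CPM in low-yield libraries, with low-yield 2 on top. Smooth muscle markers (5 of 6) summed to 157 to 354 CPM in high-yield libraries, against 152.5 to 2254 CPM in low-yield libraries, with low-yield 5 on top. For these markers low-yield 2, at 309 CPM, lay inside the high-yield range. Genes without a count were col3a1 for fibroblasts, cd74 for leukocytes and tagln for smooth muscle. The part of these cells in the DNMT3A, EZH1, KDM6B and KMT2 values was not tested beyond leaving out low-yield 2 and 5.

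**Figure D4:**
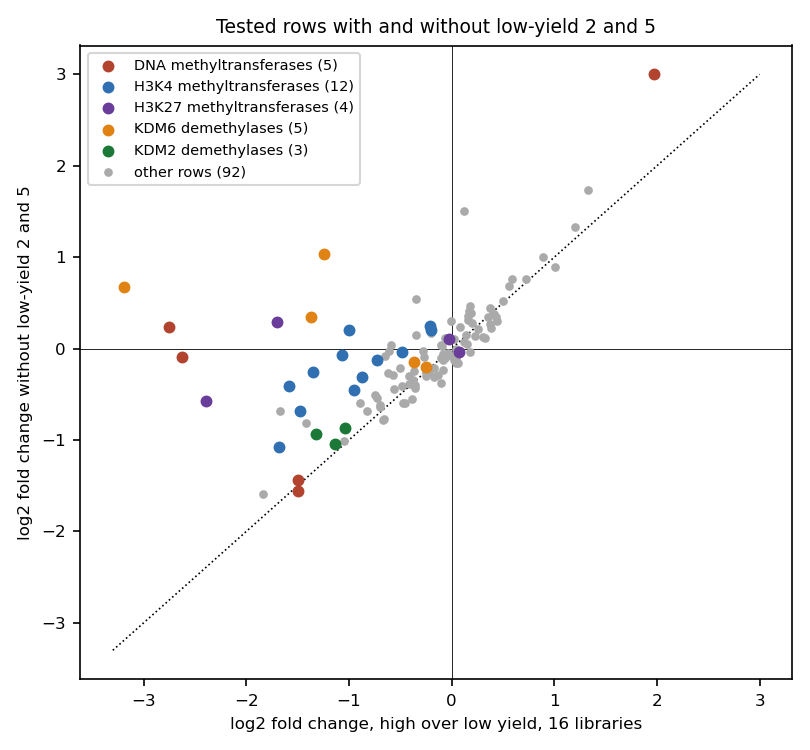
Log2 fold change of high over low yield in all 16 libraries (horizontal axis) and without low-yield 2 and 5 (vertical axis) for the tested rows that passed the filter both times, with 5 enzyme groups in colour and the dotted line marking equal values. The DNMT1 and KDM2 rows lie near the line, while the 2 DNMT3A rows (-2.76 and -2.63 over 16 libraries) and KDM6B LOC117404574 (-3.19) lie far above it.

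Sturgeons descend from an ancestor whose genome was duplicated, and many of these enzymes have 2 rows. The rows dtnbb, tmem88b and smim22, whose symbols disagree with their descriptions, were left out of the comparison of rows. The tet1 row, described as TET3, was kept. Of 51 proteins with 2 tested rows left, the rows had the same sign in 42, both negative in 28 and both positive in 14, and opposite signs in 9. The median difference between the log2 fold changes of such rows was 0.25, and the largest was 1.28, between the KMT2A rows. DNMT1 (difference 0.007) and KDM2B (0.099) were below that median, and SUV39H1 (1.25) and KDM8 (1.03) were far above it. Reads shared by near-identical copies may have been divided between them, and how they were counted is not given in the sources used here, so the rows of one protein are not independent of each other.

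**Figure D5:**
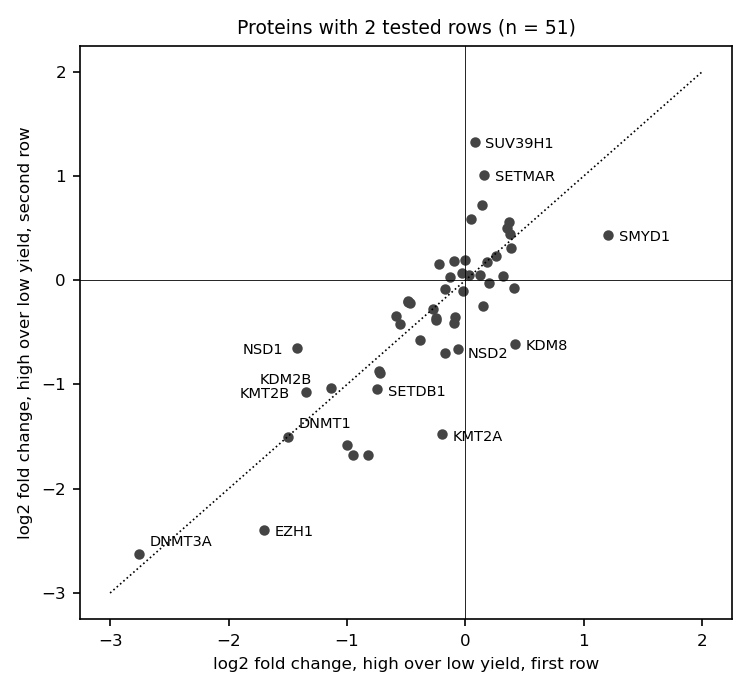
Log2 fold change of high over low yield of the first row (horizontal axis) and the second row (vertical axis) of the 51 proteins with 2 tested rows (DNMT3A without dtnbb), with the dotted line marking equal values. Most proteins lie near the line, with SUV39H1, SETMAR, KMT2A, KDM8 and SMYD1 farther from it.

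Levels per length are uncertain for these rows. The transcript length implied by the ratio of count to FPKM ran from 116 to 16165 bases over the 146 rows and differed more than 3-fold between the rows of 24 of the 51 proteins, up to 36.7-fold for KMT2C. KDM5B LOC131702019 had the highest mean of all, 170.5 FPKM, at an implied length of 525 bases, while the other KDM5B row, LOC117964478, had 17.5 FPKM at 2512 bases. DNMT1 had 24.2 FPKM in LOC117966883 at 1305 bases and 2.54 FPKM in LOC117402080 at 9028 bases. The FPKM values given for NSD2, BMI1 and KDM5B carry the same uncertainty. A comparison of 1 row between libraries does not depend on its length where that length is the same in each library, which was not tested.

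Rows of other chromatin genes were taken from 9 lists, 337 rows in all, of which 298 were tested, and edgeR called 0 of them. In edgeR 71 of the 298 had an unadjusted p under 0.05, against 19.8% of all tested genes. DESeq2 over 16 libraries called 23, against 5.87% of all genes. Of the 298, 166 were negative (55.7%), with a median of -0.09. Of the 9 lists, chromatin remodellers and ARID-domain proteins had the largest share of negative rows, 51 of 69 (73.9%), with a median of -0.25 and -0.14 without low-yield 2 and 5, 0 called by edgeR and 11 by DESeq2 over 16 libraries, all lower in high yield, against 3.12% of all genes. DESeq2 on pair-summed counts called 0 of these rows. BRG1, the ATPase of the SWI/SNF remodelling complex, ran in LOC117966877 from 19.2 over a median of 28.0 to 32.5 CPM in high yield and from 17.4 over a median of 56.3 to 101 CPM in low yield (-1.08, SE 0.27). ARID1A, a subunit of the same complex, was -1.44 (SE 0.32) in LOC117413993 and -1.02 (SE 0.27) in LOC117413246. Rows of other subunits went both ways. SMARCB1 was 0.17 and -0.01, SMARCD2 was 0.43 and 0.37, and ARID1B was 0.45 and -0.17. SMARCD1 was -0.17 and -0.23, and SMARCD3 was -2.78 and -2.12 (-1.26 and -0.46 without low-yield 2 and 5).

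UHRF1, which brings DNMT1 to half-methylated DNA, averaged 52.7 ± 9.95 CPM in high yield (SD, n = 4) and 58.6 ± 17.6 CPM in low yield (SD, n = 8) in LOC117401349 (-0.15, SE 0.19), and was -0.21 (SE 0.21) in its second row, LOC117966328. Of the 29 tested rows in the list of DNA methylation partners 14 were negative, with a median of 0.02, and 11 of 31 with a median of 0.12 once low-yield 2 and 5 were left out. That list also held rows of GADD45 alpha, beta and gamma. The list for supply of S-adenosylmethionine, the methyl donor, was negative in 14 of 29 tested rows, with a median of 0.03. Once low-yield 2 and 5 were left out, it was negative in 18 of 30, with a median of -0.12. It also held rows of glycine N-methyltransferase, adenosylhomocysteinase and cystathionine beta-synthase, so these medians are not those of supply alone. The list of arginine methyltransferases other than CARM1 was positive in 8 of 10 tested rows, with a median of 0.15. Once low-yield 2 and 5 were left out, it was positive in 5 of 10, with a median of 0.0067. That list also took rows not described as methyltransferases, those of methylosome protein 50 (WDR77). Over 16 libraries these were 0.33 (SE 0.16) and 0.25 (SE 0.16). Histone acetyltransferases had a median of 0.01. The list of deacetylases had a median of -0.06, or 0.04 once low-yield 2 and 5 were left out. It also held SIN3, NCOR and RCOR corepressors, so this median is not that of the deacetylases alone. Medians were -0.02 for SET1/MLL complex subunits, -0.11 for polycomb partners and -0.06 for methyl-histone readers. In each of these lists edgeR called 0 rows. Of the readers, DESeq2 over 16 libraries called 2 higher and 3 lower, against 2.75% and 3.12% of all genes. On pair-summed counts it called 2, against 0.289%. The reader L3MBTL1 LOC117417173 reached 1.21 CPM in high yield and at least 1.47 CPM in low yield (-1.705, SE 0.33, edgeR adjusted p 0.0553). By pair means, 0.297% of all tested genes were so separated. ING2 LOC117408677 was 1.36 (SE 0.28, edgeR adjusted p 0.05625).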

How the data were processed

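Ovary RNA of 16 females was sequenced after poly(A) capture, per the labels' protocols. For each of 41685 genes the authors deposited a count and an FPKM value (scaled by transcript length and library size) in every library. Adapters were trimmed with cutadapt 1.9, per the submitters' processing notes. The aligner, the counting program with its strand setting and the genome build were not given in the sources used here.

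Counts were tested with edgeR 4.0.16 (filterByExpr, TMM scaling, quasi-likelihood F test, two-sided, Benjamini-Hochberg adjustment over all tested genes, threshold 0.05). SEs were derived from the F statistics of the fit over 16 libraries, except where pair-summed counts are named. CPM values are TMM-scaled, and implied lengths were computed from the deposited counts and FPKM. Beyond the traits of the groups given above, the labels say of the females only that they are separate, so p-values measure the spread between these libraries. Whether the libraries of a near-identical high-yield pair came from the same female was not tested.

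Members and lists were chosen with earlier results of these data known, and list patterns were corrected after wrong matches were seen. Rows named in the text are all DNA methyltransferase, TET and KDM2B rows, the 3 rows that chose the set, the highest mean FPKM of each class, the 5 largest values each way at a mean of at least 1 CPM, and a list of core enzymes; rows named beyond these, such as second copies and rows called by DESeq2, were chosen after their values were seen. Genes were matched by symbol or description, since 20 member rows carry a symbol. Some symbols and descriptions disagree (dtnbb, tmem88b, smim22, tet1), and the descriptions were followed. The lysine-specific histone demethylase KDM1A is not matched by the rule.

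Alternatives were DESeq2 1.42.0, limma 3.58.1 on log2(FPKM + 1) and log2(FPKM + 0.1), pair-summed counts, other scalings and filters, a replicate block and omission of libraries. The test was run on simulated counts, drawn independently for each library. That check therefore does not cover near-identical pairs or libraries that stand apart. Tables and figures were made with pandas 2.3.3, numpy 2.4.6 and matplotlib 3.10.9 under Python 3.11.15, and tests run under R 4.3.3.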

Additional observations from a re-analysis of the deposited data

Results flagged for a closer look

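In 15 of 106 groups of values, for 53 rows in 2 groups each, the highest or lowest library lay farther from its neighbour than Dixon's 95% critical ratio allows, taking 4 pair means in high yield and 8 libraries in low yield. That ratio is passed by about 1 in 20 groups of independent, normally distributed values. Here the CPM values were not transformed, and some rows were chosen for large fold changes. The number of flags can therefore not be set against that rate. Among high-yield pairs, KDM5A stood at 16.7 CPM in the pair 2 and 6, SMYD1 LOC117403714 at 2.98 CPM in the pair 1 and 5, and DNMT3B LOC117424752 at 1.76 CPM in the pair 3 and 7. Low-yield 5 was the highest of its group for DNMT3A LOC117402280 at 121 CPM, for EZH1 LOC117434945 at 36.5 CPM, for KDM6B LOC117404574 at 22.6 CPM and for EZH2 LOC117400656 at 215 CPM. Low-yield 2 was the highest of its group for KMT2C LOC117394699 at 7.91 CPM, for KMT2D LOC131720884 at 8.98 CPM, for KMT2A LOC131708098 at 3.64 CPM, for NSD1 LOC117431641 at 2.81 CPM, for DNMT3B LOC117424752 at 4.13 CPM and for the tet1 row described as TET3 at 3.85 CPM. Low-yield 7 was highest for NSD2 LOC117408614 at 98.9 CPM, and low-yield 8 for SUZ12 LOC117422879 at 32.7 CPM.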

How the results depend on the processing

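Against 16 of all genes and 3 member rows, DESeq2 called 1624 and 8, pair-summed counts 0 and 0 with edgeR and 86 and 4 with DESeq2, median-of-ratios scaling 26 and 4, library size alone 3 and 0, no filter 4 and 1, a mean FPKM of at least 1 68 and 5, and limma 3 and 0 on log2(FPKM + 1) and 4 and 0 on log2(FPKM + 0.1). Higher and lower calls were 2 and 14 with TMM, 7 and 19 with median-of-ratios and 1 and 2 with library size. Leaving out low-yield 2 and 5 gave 3 and 2, and the added combination of this with pair-summed counts, chosen after the data were seen, gave 0 and 0. Leaving out a high-yield pair gave 0 and 0 without 1 and 5 or 2 and 6, 393 and 5 without 3 and 7, and 413 and 5 without 4 and 8. Leaving out 1 library gave 0 to 536 genes and 0 to 5 member rows: 0 rows without any 1 of high-yield 1, 2, 3, 5, 6, 7 and 8 or low-yield 1, 2, 3, 4 and 6, 1 when high-yield 4 was dropped, 2 when low-yield 7 was, 4 when low-yield 5 was and 5 when low-yield 8 was. Other chromatin rows called, 0 by the main test, were 23 with DESeq2, 2 with pair-summed DESeq2, 6 without high-yield 3 and 7, 5 without 4 and 8 and 0 to 12 without 1 library. The cause of these changes was not tested.

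Replicate numbers did not pair the groups: deviations of same-numbered libraries correlated between -0.18 and 0.40, and numbers 4, 5 and 7 alone correlated best with their own. With the replicate block 0 genes and 0 member rows were called. Of 1673 log2 fold changes of 53 named rows under alternatives, 38 moved by more than the spread between samples, and 0 called values changed sign. The 24 rows below the low-count filter were not tested.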

Other observations

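The 24 rows below the low-count filter included enzymes that were seen mainly in low-yield 2 and 5. The TET3 row LOC117421276 stood at 5.94 CPM in low-yield 2 and 4.56 CPM in low-yield 5 and at most at 0.927 CPM in every other library, and the row with the symbol tmem88b, described as KDM6B, at 17.2 CPM in low-yield 5 and at most at 1.25 CPM elsewhere. The rows of PRDM7 and PRDM9, meiotic H3K4 methyltransferases in mammals, reached at most 0.654 CPM in high-yield libraries, against 1.28 CPM in low-yield libraries. SETD1A reached 0.781 CPM in high-yield libraries, against 3.59 CPM in low-yield libraries, where low-yield 6 was highest. For these rows no fold change is given.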
